A study of Homo sapiens with 30 samples.

Results

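Transcripts of the subunits of RNA polymerase II (RNAPII) and of Mediator were followed in the human NB line SH-EP and in 4 derivatives that express MYCN from a transgene, with and without the kinase inhibitor CYC065. The genes were chosen by symbol, as those named POLR2A to POLR2L, those named MED followed by a number (with or without a final L), and CDK8, CDK19, and CCNC. The rule found 45 of the 26228 genes in the table, of which 12 encode RNAPII subunits and 33 encode Mediator subunits. The rule uses symbols only, but it was set with earlier results of these data known. Of the 45 genes, 44 reached a mean of 1 FPKM over all libraries and were tested. The exception was MED12L, a paralog of the kinase module gene MED12, which stood at 0.0313 to 0.317 FPKM in the 30 libraries.

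SH-EP is an established NB cell line, and it was grown here in parental form and as 4 stable lines carrying exogenous WT, T58A, S62A, or T58A S62A MYCN. The mutations replace a threonine, a serine, or both, whose phosphorylation controls the stability of the MYCN protein. The study made these lines with retroviral transgenes under an exogenous promoter, so each is 1 engineered line, and the sources used here name no empty-vector control. Each of the 5 lines was exposed for 6 hours to DMSO (the solvent) or to 1 μM CYC065, an inhibitor of CDK9 and CDK2, which gives 10 groups of 3 libraries. Nothing in the labels says that libraries of a group came from separate cultures, so the p-values measure the spread between these libraries, which may be technical. The permutation tests of gene ratios against SH-EP, given below, also include the spread between lines.

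RNAPII is the enzyme that synthesises mRNA. Its catalytic core is completed by a detachable stalk and by subunits that it shares with RNA polymerases I and III. Mediator is the large coactivator that carries signals from enhancer-bound transcription factors to RNAPII at the promoter. Its head and middle contact the polymerase, MED14 forms the scaffold, the tail binds activators, and a separable kinase module holds CDK8 or its paralog CDK19 with cyclin C (CCNC), MED12 or MED12L, and MED13 or MED13L. CDK9, a target of CYC065, phosphorylates the RNAPII carboxy-terminal domain and releases paused polymerase into elongation.

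MYCN was listed at 0 FPKM in all 6 SH-EP libraries and stood at 5.08 to 15.7 FPKM in the 12 DMSO libraries of the MYCN lines. Of 8 mesenchymal NB markers, 7 were detected in all 30 libraries, from TWIST1 at 3.798 to 37.9 FPKM to VIM at 1305 to 4599, and COL1A2 was at 0 to 0.879. Of these 7, 6 were called lower in each MYCN line than in SH-EP in DMSO as deposited, and their part in the results was not tested. Noradrenergic markers were mixed, since PHOX2A was listed at 0 in all 30 libraries and DBH and HAND1 in 29, TH and ISL1 reached 0.969 and 2.01 FPKM, and HAND2, GATA2, and GATA3 were at 23.1 to 89.3, 5.26 to 22.4, and 1.89 to 9.45. Of 8 markers of other cell types, 7 stayed under 0.33 FPKM (the exception was the keratin gene KRT18). FPKM counts fragments per transcript length and is relative to the total of each library. Synthetic ERCC spike-in RNAs, added by cell number, took 1.99% to 2.29% of the total FPKM in SH-EP in DMSO, 3.15% to 9.36% in the MYCN lines in DMSO, and up to 15.2% with CYC065. The 6 SH-EP libraries share their index sequences with libraries of MYCN lines, so any separate library pool of SH-EP and the parental line cannot be told apart.

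RNAPII genes were present at higher levels than Mediator genes. Mean FPKM over the 30 libraries, a per-length level that can be compared between genes, had a median of 65.9 for the 12 RNAPII genes and of 9.81 for the 33 Mediator genes. POLR2L, a small subunit shared by all 3 polymerases, was highest at 208 FPKM, followed by the shared POLR2H at 119 and the core subunit POLR2C at 87.4. POLR2A, which encodes the catalytic subunit with the carboxy-terminal domain, was at 29.6, below 9 of the other 11 RNAPII genes. Within Mediator, CCNC was highest at 36.4 and MED10 of the middle followed at 28.9. The lowest tested members were MED9 of the middle at 4.31, CDK19 at 5.03, and the tail subunit MED23 at 5.95. These means and medians mix DMSO and CYC065 libraries, so the order and the gap between the complexes also hold the response to the drug. In the DMSO libraries alone, MED26 of the middle was the lowest tested member at a mean of 3.16 FPKM, and MED9 was at 6.18. There MED10, at 34.9, lay above CCNC, at 30.5. No member was listed at 0 in any library. The near-identical copies of POLR2J (POLR2J2, POLR2J3, and POLR2J4) were listed at up to 1.34 FPKM, and the division of reads among them makes the value of POLR2J uncertain.

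The next comparison asks how exogenous MYCN changed these transcripts in DMSO. Relative to all mRNA, more subunit genes were higher than lower in the MYCN lines. In the mean of the lines, 8 of 12 RNAPII genes rose and 1 fell, and 12 of 32 Mediator genes rose and 5 fell, with CDK8 and CCNC of the kinase module higher and CDK19 lower. The difference between the complexes was not tested. In the mean of the 4 MYCN lines against SH-EP, 20 of 44 members rose (45.5%, against 34.6% of all 11575 tested genes) and 6 fell (13.6%, against 26.3%), by limma on FPKM as deposited at an adjusted p under 0.05. The median log2 change was 0.21 for the members and 0.06 for all genes. By line, WT had 17 higher and 5 lower (background 31.6% and 22.6%), T58A 19 and 4 (30.9% and 23.3%), S62A 15 and 6 (31% and 23.4%), and T58A S62A 21 and 4 (31.2% and 24.1%). These 4 comparisons share the 3 SH-EP libraries. All of these increases are relative to the library, and in bulk samples fewer cells that carry a transcript and less of it per cell cannot be told apart. On values scaled to the spike-ins, 0 of 44 members rose in any of the 4 lines by limma at the adjusted threshold (0 also at an unadjusted p under 0.05) and 43, 38, 44, and 29 fell, in the order of lines above (background 0.994%, 1.87%, 0.389%, and 2.27% higher and 88.5%, 77.6%, 95%, and 69.7% lower, and 0 members higher in the mean, against 1.1%, with 44 lower, against 91.2%). There the median of all genes moved to -1.17 in the mean of the lines and that of the members to -1.04.

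Most of the shared subunits rose relative to the library. All 5 (POLR2E, POLR2F, POLR2H, POLR2K, and POLR2L) were called higher in WT, 3 in S62A, and 4 each in T58A and T58A S62A. The background was 31.6%, 31%, 30.9%, and 31.2% of all genes in the same order. In S62A the lowest log2 change among the 5 was -0.0074. None was called higher in any line after spike-in scaling. Genes specific to RNA polymerases I and III, given below, were also mostly called higher as deposited. Libraries of a group are listed from lowest to highest here and below. POLR2F (chr22:38348614-38437922, plus strand, GRCh37) was at 10.05, 10.7 and 10.95 FPKM in SH-EP, 17.9, 19.3 and 23.3 in WT, 17.6, 18.1 and 18.4 in T58A, 14.2, 15.2 and 16.3 in S62A and 15.5, 16.6 and 23.02 in T58A S62A. Every MYCN-line library lay above every SH-EP library. The mean log2 change of POLR2F was 0.74 ± 0.099 (SE), or 1.68-fold (limma, adjusted p = 5.61e-07), and -0.50 after spike-in scaling.

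Within the core, POLR2I rose and POLR2A did not pass the test. POLR2I, a small subunit at the rim of the enzyme that acts in transcript proofreading (chr19:36604611-36606115, minus strand), stood at 19.1, 21.5 and 21.5 FPKM in SH-EP, 31.3, 31.5 and 37.8 in WT, 32.6, 33.9 and 38.99 in T58A, 24.7, 26.6 and 32.3 in S62A and 35.9, 41.6 and 46.9 in T58A S62A. The groups did not overlap with SH-EP in any line, and the mean log2 change was 0.71 ± 0.085 (SE) (limma, adjusted p = 9.51e-08), and -0.53 after spike-in scaling. POLR2A (chr17:7387685-7417933, plus strand) was at 30.7, 32.9 and 33.2 FPKM in SH-EP, 31.3, 31.5 and 31.98 in WT, 35.7, 36.8 and 40.1 in T58A, 31.3, 33.5 and 35.8 in S62A and 29.04, 31.05 and 36.2 in T58A S62A. Its mean log2 change was 0.057 ± 0.050 (SE) (limma, adjusted p = 0.341), and T58A was the only line called, at 0.22. POLR2B, the second-largest subunit, which forms the active site with POLR2A, rose by 0.34 in the mean of the lines (limma, adjusted p = 1.97e-06).

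The stalk pair moved in opposite directions relative to the library. POLR2D rose by 0.49 in the mean of the lines (limma, adjusted p = 1.44e-07). Its partner POLR2G (chr11:62529037-62534182, plus strand) was at 66.7, 69.2 and 69.6 FPKM in SH-EP, 52.2, 55.4 and 66.03 in WT, 47.3, 50.02 and 50.1 in T58A, 49.2, 52.7 and 58.7 in S62A and 51.8, 55.1 and 62.3 in T58A S62A. POLR2G thus lay lower in every MYCN-line library than in SH-EP, with a mean log2 change of -0.34 ± 0.067 (SE) (limma, adjusted p = 0.000107). MED15, a tail subunit that binds activators, also fell. It stood at 23.7, 23.9 and 24.6 FPKM in SH-EP, 17.8, 18.9 and 23.8 in WT, 18.5, 18.7 and 21.8 in T58A, 17.9, 17.95 and 18.7 in S62A and 19.4, 20.03 and 22.9 in T58A S62A, where the highest WT library overlapped SH-EP and the other lines did not. Its mean log2 change was -0.29 ± 0.069 (SE) (limma, adjusted p = 0.000688). The head subunit MED8 and the tail subunit MED23 also fell, with mean log2 changes of -0.44 and -0.46 (limma, adjusted p = 0.000701 and 0.000829).

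**Figure D1:**
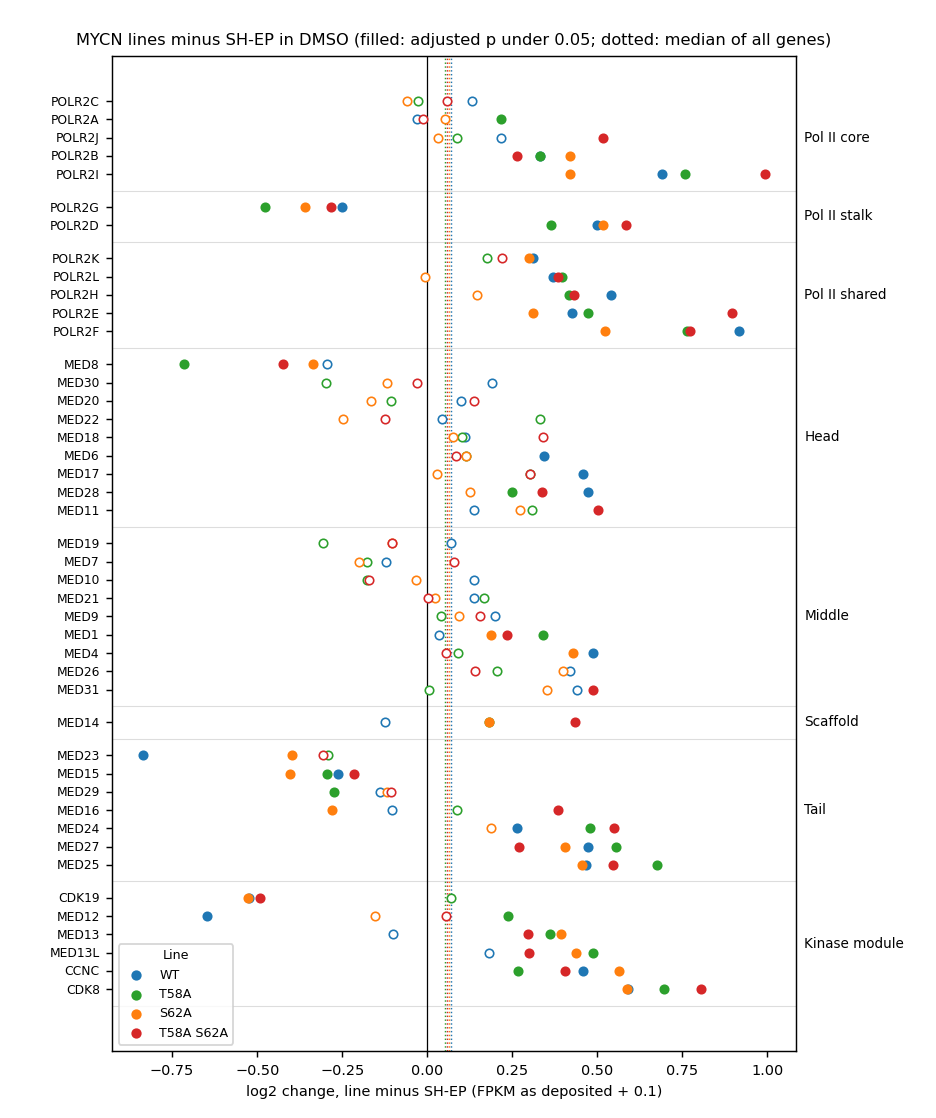
Log2 change of each of the 44 tested members in the 4 MYCN lines against SH-EP in DMSO (x axis, log2 of FPKM as deposited plus 0.1), grouped by module (y axis); filled points passed limma at an adjusted p under 0.05, and dotted lines mark the median of all genes in each line. Relative to the library, POLR2F, POLR2I, and CDK8 lie to the right in all 4 lines, and POLR2G and MED15 to the left.

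In the mean of the 4 MYCN lines, the paralogous kinases CDK8 and CDK19 moved in opposite directions relative to the library, whereas both fell after spike-in scaling. CDK8, the Mediator kinase (chr13:26828241-26995119, plus strand), was at 6.74, 8.23 and 8.29 FPKM in SH-EP, 10.99, 11.3 and 12.7 in WT, 11.9, 12.1 and 13.7 in T58A, 11.2, 11.8 and 11.9 in S62A and 12.2, 13.5 and 15.1 in T58A S62A. All 12 MYCN-line libraries lay above SH-EP, with a mean log2 change of 0.67 ± 0.14 (SE), or 1.59-fold (limma, adjusted p = 0.000226), and -0.57 after spike-in scaling. CDK19 (chr6:110931181-111137161, minus strand) was at 5.51, 6.25 and 6.35 FPKM in SH-EP, 3.96, 4.19 and 4.34 in WT, 6.23, 6.33 and 6.45 in T58A, 4.03, 4.18 and 4.24 in S62A and 3.78, 3.88 and 5.26 in T58A S62A. It was lower in WT, S62A, and T58A S62A. In T58A it overlapped SH-EP, at a log2 change of 0.071, the same sign as for CDK8. The mean log2 change of CDK19 was -0.37 ± 0.077 (SE) (limma, adjusted p = 0.000236).

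A ratio of 2 genes within a library does not depend on how libraries are scaled. The ratio of CDK8 to CDK19 was 1.06, 1.32, and 1.5 in the SH-EP libraries in DMSO. It was 2.70, 2.78, and 2.93 in WT, 1.87, 1.89, and 2.2 in T58A, 2.68, 2.81, and 2.92 in S62A, and 2.87, 3.23, and 3.47 in T58A S62A. No library of a MYCN line reached down to the SH-EP range. The difference in log2 ratio was 1.05 (two-sided exact permutation of 12 libraries against 3, p = 0.0022, the smallest this design can give, and 0.0033 adjusted over 6 paralog tests). The permutations against SH-EP treat libraries of all lines as exchangeable, but libraries cluster by line. T58A, for example, was at 1.87 to 2.2 and T58A S62A at 2.87 to 3.47. SH-EP is 1 line, so these p-values cannot separate an effect of MYCN from other differences between lines. A test with the line as the unit was not run. The ratio of MED13 to MED13L differed by -0.12 (exact permutation p = 0.119, adjusted 0.119), and that of MED12 to MED12L by 0.61 (exact permutation p = 0.0879, adjusted 0.105). MED12L is low in all libraries, and with 1 FPKM added to both genes the last difference became -0.055.

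CCNC, the cyclin partner of both kinases (chr6:99990263-100016701, minus strand), was at 22.8, 22.98 and 25.95 FPKM in SH-EP, 32.02, 32.2 and 34.3 in WT, 26.4, 28.9 and 31.04 in T58A, 34.2, 35.1 and 36.8 in S62A and 29.1, 29.6 and 36.7 in T58A S62A. All MYCN-line libraries were above SH-EP, with a mean log2 change of 0.42 ± 0.058 (SE) (limma, adjusted p = 8.72e-07), and -0.82 after spike-in scaling. MED13 (chr17:60019966-60142639, minus strand), which links the module to core Mediator, was at 10.9, 11.96 and 12.3 FPKM in SH-EP, 9.13, 11.7 and 12.2 in WT, 14.2, 15.1 and 15.99 in T58A, 14.7, 15.2 and 16.4 in S62A and 13.1, 14.7 and 15.5 in T58A S62A. It was higher in the 3 mutant lines and overlapped SH-EP in WT. The mean log2 change of MED13 was 0.24 ± 0.086 (SE) (limma, adjusted p = 0.0198), and leaving out the SH-EP library with 10.9 FPKM gave 0.19 (adjusted p = 0.13), and spike-in scaling -1.01.

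MED12 (chrX:70338393-70363953, plus strand), which activates the module's kinase, was at 7.502, 8.001 and 8.31 FPKM in SH-EP, 4.96, 5.03 and 5.103 in WT, 9.05, 9.31 and 9.75 in T58A, 6.67, 6.86 and 7.89 in S62A and 8.01, 8.34 and 8.396 in T58A S62A. The WT libraries lay below all others, at a log2 change of -0.65 ± 0.088 (SE) from SH-EP (limma, adjusted p = 1.13e-06), whereas T58A was called higher at 0.24. The scaffold gene MED14 (chrX:40507557-40595110, minus strand) was at 14.3, 15.1 and 15.7 FPKM in SH-EP, 12.4, 14.4 and 14.5 in WT, 16.8, 17.1 and 17.3 in T58A, 16.3, 16.4 and 18.5 in S62A and 18.8, 20.6 and 21.7 in T58A S62A. It passed the test in the 3 mutant lines and not in WT. Its mean log2 change of 0.17 ± 0.052 (SE) (limma, adjusted p = 0.00713) became 0.13 (adjusted p = 0.0736) without the same SH-EP library and -1.08 after spike-in scaling.

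MYCN binds the E-box CACGTG, so the promoters of members were searched for it, and both that hold it are shown. RefSeq promoters (GRCh38.p14, 250 bases before to 50 after the start site) were at hand for 33 of the 45 members. CACGTG, which reads the same on both strands and does not overlap the other motif searched, occurs in 2 of them (6.06%) and in 7.43% of all 27305 promoters of this length. They are CDK8 (chr13:26253879-26254178, plus strand), where it begins 200 bases before the start site, and MED13L (chr12:116277644-116277943, minus strand), where it begins 52 bases before. Capitals mark the E-box.
CDK8 promoter: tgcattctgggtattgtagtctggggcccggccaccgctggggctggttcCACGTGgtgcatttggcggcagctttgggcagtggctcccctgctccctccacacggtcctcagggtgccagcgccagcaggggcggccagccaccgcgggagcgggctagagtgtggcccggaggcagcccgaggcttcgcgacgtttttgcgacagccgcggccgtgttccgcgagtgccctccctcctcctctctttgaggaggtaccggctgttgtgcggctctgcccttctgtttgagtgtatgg
MED13L promoter: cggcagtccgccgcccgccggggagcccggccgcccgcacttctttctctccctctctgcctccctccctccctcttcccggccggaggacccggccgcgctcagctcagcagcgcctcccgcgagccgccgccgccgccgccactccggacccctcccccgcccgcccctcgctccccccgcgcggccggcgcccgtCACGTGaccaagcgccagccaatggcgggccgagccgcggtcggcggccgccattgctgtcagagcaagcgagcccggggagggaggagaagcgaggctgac
Relative to the library, CDK8 was called higher in all 4 MYCN lines and MED13L in T58A, S62A, and T58A S62A. The log2 changes of MED13L in these 3 were 0.49, 0.44, and 0.30, and that in WT was 0.18 (limma, adjusted p = 0.164). POLR2F and CCNC, whose windows hold no CACGTG, also lay above SH-EP in every MYCN-line library, relative to the library. POLR2A, whose window also lacks it, did not pass the test in the mean of the lines. Any part of the E-box in these changes was not tested, and its occupancy was not analysed here.

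The second comparison asks what 6 hours of CYC065 did to these transcripts per cell, on values scaled to the spike-ins. Nearly all subunits fell, as did nearly all genes, but by very different amounts. MED7, MED22, CDK8, and MED13 fell to 0.0997 to 0.133 of their DMSO level, MED30 and POLR2F fell least, and MED26 rose. These sizes rest on the median of the spike-ins. In SH-EP, its log2 level was 2.67 to 2.77 in DMSO and 3.86 to 4.16 with CYC065. The spike-in share of the total FPKM rose less there, from 1.99% to 2.29% in DMSO to 2.70% to 3.78% with CYC065. The same held in every MYCN line. In WT, the median log2 level was 3.67 to 4.21 in DMSO and 5.48 to 5.86 with CYC065. The WT share was 3.58% to 6.01% in DMSO and 8.02% to 12.3% with CYC065. A scaling to the share was not tried, so in all 5 lines the small falls in particular are uncertain in size, and with them the counts called lower. In the mean of the 5 lines, 43 of 44 members fell (97.7%, against 94.4% of all tested genes) and 1 rose (2.27%, against 1.59%), by limma. On FPKM as deposited, 22 fell and 20 rose (background 39.8% and 46.9%), and after centring libraries on their medians 18 fell and 21 rose (33.1% and 55.2%). By line, SH-EP had 36 lower members (background 75.7%), WT 43 (93.7%), T58A 39 (84.2%), S62A 42 (90.2%), and T58A S62A 37 (76.3%). MED26 alone was called higher, in SH-EP, T58A, and T58A S62A, where 0.907%, 1.25%, and 1.85% of all genes were higher, and limma called 0 members higher in WT and S62A (0.769% and 0.968% of all genes, and 0 members also at an unadjusted p under 0.05). The count called lower in all 5 lines, each with its own DMSO control, was 36 (81.8%, against 69.4%), and 0.501% of all genes but no member were called higher in all 5.

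The RNAPII genes fell by less at the median than the Mediator genes. The 12 RNAPII genes had a median change of -0.76 in log2, and 10 of them lay above the median of all genes, -1.20. The 32 tested Mediator genes had a median of -1.69, and 22 of them lay below it. RNAPII had the higher median in each line, at -0.48 against -1.83 in SH-EP, -1.24 against -1.95 in WT, -0.94 against -1.95 in S62A, -0.60 against -1.55 in T58A, and -0.51 against -1.39 in T58A S62A. These medians are a description with no test. Across the 44 members, the log2 change went with mRNA length at Pearson r = -0.35, and across 10062 tested genes with a length at r = -0.23, so longer mRNAs fell more in both. The change also went with the DMSO level across the members (Pearson r = 0.28, Spearman rho = 0.39, against -0.39 for length). The part of length and of level in the difference between the complexes was not tested.

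The largest fall was that of MED7, a subunit at the hinge of the middle module (chr5:156564435-156586030, minus strand). In spike-in scaled FPKM, the DMSO libraries were at 32.6, 33.3 and 40.1 in SH-EP, 11.4, 12.3 and 17.7 in WT, 11.6, 17.2 and 20.8 in T58A, 7.09, 8.29 and 8.42 in S62A and 12.9, 24.8 and 28.6 in T58A S62A. The CYC065 libraries were at 1.46, 2.03 and 3.91 in SH-EP, 1.41, 1.49 and 1.703 in WT, 1.01, 1.06 and 1.14 in T58A, 0.875, 0.922 and 1.33 in S62A and 2.15, 2.41 and 2.84 in T58A S62A. Every treated library lay below every control of its line. The mean log2 change was -3.33 ± 0.13 (SE), or 0.0997 of the DMSO level (limma, adjusted p = 2.03e-19), and 3.48% of all genes fell further.

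MED22, a head subunit (chr9:136205149-136214986, minus strand), followed. Its DMSO libraries were at 30.2, 32.4 and 37.3 in SH-EP, 11.8, 12.4 and 20.04 in WT, 15.9, 22.1 and 28.6 in T58A, 6.31, 6.53 and 9.05 in S62A and 14.96, 17.3 and 19.1 in T58A S62A in spike-in scaled FPKM. With CYC065 they were at 2.69, 3.35 and 3.73 in SH-EP, 0.784, 0.939 and 1.69 in WT, 2.32, 2.66 and 3.47 in T58A, 0.7005, 0.774 and 1.13 in S62A and 1.304, 2.68 and 3.56 in T58A S62A. The groups did not overlap in any line, and the mean log2 change was -3.12 ± 0.13 (SE) (limma, adjusted p = 2.39e-18). MED1, the subunit bound by nuclear receptors, changed by -2.88 ± 0.080 (SE), MED9 by -2.69 ± 0.11 (SE), and MED8 by -2.54 ± 0.090 (SE) (limma, adjusted p = 4.86e-22, 8.40e-19, and 4.98e-20).

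The kinase module again divided. CDK8 in DMSO was at 22.1, 25.3 and 26.5 in SH-EP, 12.4, 16.3 and 18.7 in WT, 14.5, 22.8 and 26.5 in T58A, 8.496, 9.19 and 11.2 in S62A and 19.2, 27.1 and 27.2 in T58A S62A in spike-in scaled FPKM. Under CYC065 it was at 2.103, 2.75 and 3.36 in SH-EP, 1.19, 1.32 and 2.24 in WT, 2.42, 3.23 and 3.81 in T58A, 0.998, 1.02 and 1.07 in S62A and 2.55, 4.45 and 4.47 in T58A S62A. It fell in all 5 lines without overlap, with a mean log2 change of -2.98 ± 0.11 (SE), or 0.127 of the control (limma, adjusted p = 2.26e-19). MED13 went from 35.8, 37.6 and 38.5 in SH-EP, 13.2, 15.02 and 15.6 in WT, 17.05, 28.9 and 30.97 in T58A, 10.6, 13.5 and 14.3 in S62A and 20.6, 26.5 and 31.2 in T58A S62A to 3.21, 3.57 and 4.04 in SH-EP, 1.64, 1.93 and 1.98 in WT, 4.01, 4.44 and 4.901 in T58A, 0.953, 1.32 and 1.41 in S62A and 3.21, 4.41 and 5.47 in T58A S62A. Its mean log2 change was -2.91 ± 0.093 (SE) (limma, adjusted p = 6.42e-21). CDK8 and MED13 also fell in all 5 lines after libraries were centred on their medians.

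CDK19 fell less than CDK8. Its DMSO libraries were at 16.8, 20.1 and 20.9 in SH-EP, 4.46, 5.55 and 6.897 in WT, 7.74, 12.1 and 12.1 in T58A, 2.91, 3.43 and 3.98 in S62A and 5.95, 7.79 and 9.48 in T58A S62A in spike-in scaled FPKM. Its treated libraries were at 9.63, 11.5 and 11.5 in SH-EP, 1.65, 1.83 and 2.09 in WT, 3.303, 3.31 and 3.82 in T58A, 0.898, 1.17 and 1.24 in S62A and 2.68, 3.91 and 3.997 in T58A S62A. The mean log2 change of -1.32 ± 0.093 (SE) (limma, adjusted p = 1.78e-13) was -0.012 as deposited and 0.17 with centred libraries. The ratio of CDK8 to CDK19, free of scaling, was 0.183, 0.285, and 0.293 with CYC065 in SH-EP and 0.633 to 1.19 in the 12 treated libraries of the MYCN lines. It was lower than in DMSO in all 5 lines, by 1.15 to 2.37 on the log2 scale. The mean difference was -1.69 (two-sided exact permutation of treatment within lines, p = 6.25e-07, the smallest this design can give, adjusted 1.88e-06). MED13 fell against MED13L by 0.78 (p = 6.25e-07 by the same exact permutation, also the smallest possible) and MED12 against MED12L by 1.11 (exact permutation p = 2.5e-06), each lower in 5 of 5 lines. MED12L stood at only 0.0313 to 0.317 FPKM over the 30 libraries, so the last ratio rests on a gene near the floor.

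**Figure D2:**
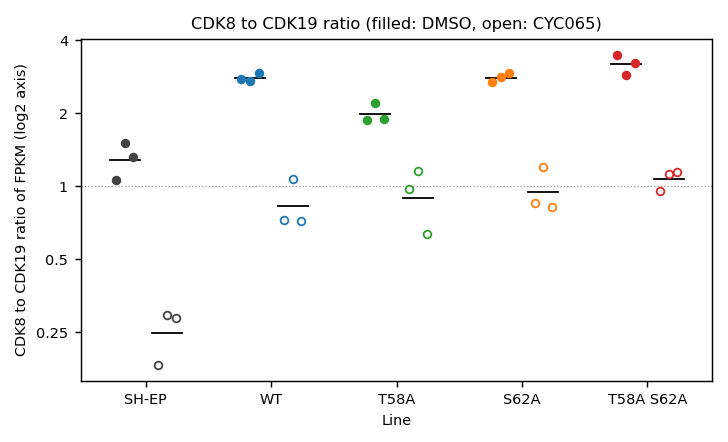
Ratio of CDK8 to CDK19 FPKM (y axis, log2 scale) in each of the 30 libraries by line (x axis); filled points are DMSO, open points are CYC065, and bars are geometric means of 3 libraries. In DMSO the MYCN lines lie at 1.87 to 3.47 and SH-EP at 1.06 to 1.5, and with CYC065 SH-EP lies lowest at 0.183 to 0.293.

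CCNC and MED14 were among the subunits that fell per cell but gained share of the library. CCNC was at 69.5, 73.95 and 85.2 in SH-EP, 36.3, 43.8 and 52.7 in WT, 34.7, 51.1 and 59.3 in T58A, 25.3, 30.1 and 32.1 in S62A and 45.9, 59.4 and 66.2 in T58A S62A in DMSO, in spike-in scaled FPKM. It was at 39.7, 47.3 and 47.5 in SH-EP, 16.1, 19.7 and 19.99 in WT, 27.7, 28.5 and 29.03 in T58A, 12.5, 15.3 and 15.8 in S62A and 29.5, 40.95 and 41.6 in T58A S62A with CYC065. Its mean log2 change was -0.87 ± 0.084 (SE) (limma, adjusted p = 1.31e-10), but 0.47 as deposited and 0.62 with centred libraries. MED14 was at 46.1, 46.8 and 50.6 in SH-EP, 16.3, 18.6 and 20.4 in WT, 20.5, 32.5 and 33.03 in T58A, 11.8, 13.4 and 17.4 in S62A and 29.6, 39.2 and 41.3 in T58A S62A in DMSO. With CYC065 it was at 22.2, 26.5 and 28.97 in SH-EP, 7.09, 8.59 and 9.66 in WT, 15.3, 15.4 and 15.8 in T58A, 5.49, 5.73 and 6.27 in S62A and 18.2, 23.8 and 27.1 in T58A S62A. Treated libraries lay below controls in each line, at a mean of -0.96 ± 0.083 (SE) (limma, adjusted p = 1.65e-11), which turned to 0.38 as deposited and 0.53 with centred libraries.

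MED12 lay between these. It was at 24.6, 25.3 and 25.7 in SH-EP, 5.66, 6.34 and 8.39 in WT, 10.9, 17.8 and 18.9 in T58A, 4.82, 5.63 and 7.399 in S62A and 12.6, 15.03 and 16.9 in T58A S62A in DMSO, in spike-in scaled FPKM. With CYC065 the values were 10.3, 10.6 and 12.1 in SH-EP, 1.52, 2.203 and 2.35 in WT, 5.09, 5.16 and 5.52 in T58A, 1.24, 1.38 and 1.802 in S62A and 4.56, 5.705 and 6.35 in T58A S62A. All 5 lines fell without overlap, at a mean log2 change of -1.55 ± 0.093 (SE) (limma, adjusted p = 4.90e-15), which was -0.24 as deposited and missed the threshold at -0.064 with centred libraries (adjusted p = 0.125). POLR2A was at 100.4, 101 and 107 in SH-EP, 36.00, 40.3 and 51.5 in WT, 42.8, 70.4 and 77.6 in T58A, 22.6, 27.5 and 33.5 in S62A and 48.9, 52.4 and 72.7 in T58A S62A in DMSO. With CYC065 it was at 32.5, 38.9 and 38.9 in SH-EP, 9.37, 11.2 and 12.9 in WT, 21.98, 22.1 and 22.5 in T58A, 5.11, 6.198 and 6.74 in S62A and 15.99, 21.4 and 22.6 in T58A S62A. POLR2A fell in all 5 lines, by a mean of -1.72 ± 0.091 (SE) (limma, adjusted p = 2.89e-16), more than any other RNAPII gene except the stalk subunit POLR2D at -2.46 ± 0.090 (SE) (limma, adjusted p = 1.01e-19). The other stalk subunit, POLR2G, was at -0.71 ± 0.094 (SE) (limma, adjusted p = 5.86e-08).

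The smallest falls were those of MED30, a head subunit, at -0.41 ± 0.10 (SE), and of the RNAPII subunits POLR2F at -0.41 ± 0.094 (SE), POLR2K at -0.53 ± 0.084 (SE), POLR2J at -0.54 ± 0.11 (SE), POLR2L at -0.56 ± 0.10 (SE), and POLR2I at -0.61 ± 0.088 (SE) (limma, adjusted p from 0.0004695 to 2.80e-07). All 5 subunits shared with RNA polymerases I and III were called higher in every line when libraries were centred on their median. With that centring, 19 of 44 members were called higher in all 5 lines (43.2%, against 35.4% of all genes) and 12 lower (27.3%, against 19.8%).

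**Figure D3:**
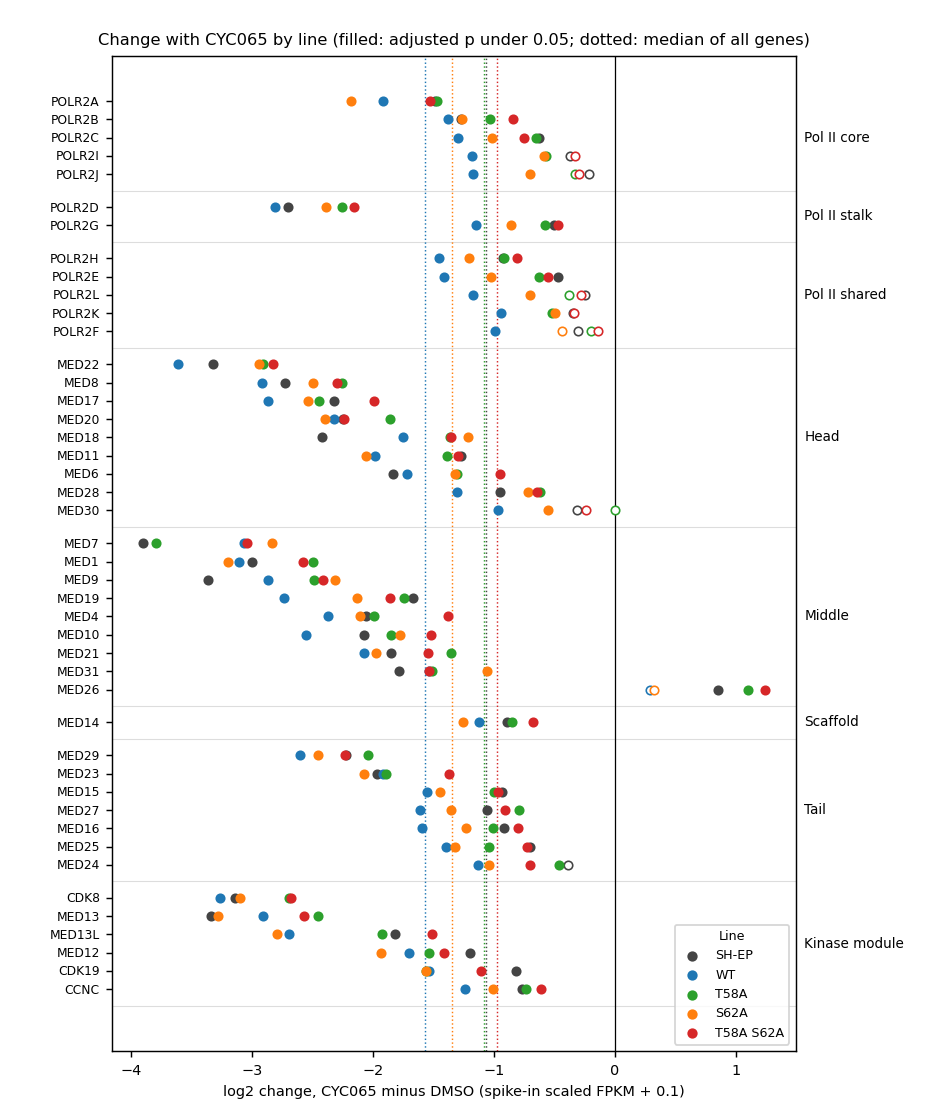
Log2 change with CYC065 of each of the 44 tested members in the 5 lines (x axis, log2 of spike-in scaled FPKM plus 0.1), grouped by module (y axis); filled points passed limma at an adjusted p under 0.05, and dotted lines mark the median of all genes in each line. Most RNAPII points lie right of the dotted lines, MED7 lies furthest left in SH-EP, T58A, and T58A S62A, MED22 in WT, and MED13 in S62A, and MED26 is the only gene right of 0 in every line.

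MED26 was the only member that rose, and it was picked out after its values were seen. It is a subunit at the outer end of the middle module that recruits elongation factors to RNAPII (chr19:16685718-16739873, minus strand). As deposited, it was at 2.51, 2.57 and 2.76 FPKM in SH-EP, 3.18, 3.42 and 4.04 in WT, 2.13, 3.003 and 4.31 in T58A, 3.09, 3.59 and 3.79 in S62A and 1.84, 3.53 and 3.69 in T58A S62A in DMSO. With CYC065 it was at 10.6, 11.4 and 11.9 in SH-EP, 13.4, 13.5 and 14.97 in WT, 13.96, 14.9 and 16.3 in T58A, 11.3, 12.8 and 13.3 in S62A and 14.1, 14.3 and 15.3 in T58A S62A. The lowest treated library, at 10.6, stood above the highest control, at 4.31. In spike-in scaled FPKM the controls were at 8.25, 8.26 and 8.43 in SH-EP, 4.37, 4.55 and 5.23 in WT, 2.56, 5.74 and 8.34 in T58A, 2.23, 2.94 and 3.56 in S62A and 3.32, 5.56 and 7.42 in T58A S62A. The treated libraries were at 12.4, 16.2 and 17.04 in SH-EP, 4.88, 5.62 and 7.01 in WT, 10.2, 10.9 and 11.4 in T58A, 3.34, 3.35 and 4.19 in S62A and 9.99, 13.6 and 13.7 in T58A S62A. On that scale the groups overlapped in WT and S62A and not in SH-EP, T58A, and T58A S62A. The log2 change was 0.85 ± 0.29 (SE) in SH-EP, 1.10 ± 0.29 in T58A, and 1.24 ± 0.29 in T58A S62A (limma, adjusted p = 0.00923, 0.00108, and 0.000376). In WT it was 0.29 ± 0.29 and in S62A 0.33 ± 0.29 (limma, adjusted p = 0.329 and 0.279). The mean was 0.76 ± 0.13 (SE) (limma, adjusted p = 3.19e-06), above 98.3% of all genes.

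Promoters of the members at both ends of this order are shown for comparison, MED7 (chr5:157142816-157143115, minus strand) and MED26 (chr19:16628155-16628454, minus strand), from RefSeq and GRCh38.p14. Capitals mark TATAAA, searched on the strand of the gene and on the other strand. It occurs in 2 of 33 member promoters (6.06%), those of MED7 and MED16, and in 12% of all promoters of this length.
MED7 promoter: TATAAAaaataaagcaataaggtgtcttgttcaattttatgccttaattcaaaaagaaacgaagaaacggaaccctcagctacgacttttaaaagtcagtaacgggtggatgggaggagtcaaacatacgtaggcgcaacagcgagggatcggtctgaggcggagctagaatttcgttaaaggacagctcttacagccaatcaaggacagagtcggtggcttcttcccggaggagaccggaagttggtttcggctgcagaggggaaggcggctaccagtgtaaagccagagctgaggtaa
MED26 promoter: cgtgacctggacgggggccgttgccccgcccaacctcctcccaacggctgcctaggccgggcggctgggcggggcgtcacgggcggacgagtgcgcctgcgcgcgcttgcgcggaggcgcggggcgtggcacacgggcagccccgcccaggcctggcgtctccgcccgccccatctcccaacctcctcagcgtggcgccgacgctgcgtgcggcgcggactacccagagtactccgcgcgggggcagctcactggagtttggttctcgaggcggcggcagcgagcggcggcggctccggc
In MED7 the motif begins 250 bases before the start site, and the MED26 window holds neither motif. Its GC content is 77.3% against 47.3% for MED7, with a median of 59.3% over the 33 member promoters and 58.3% over all.

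**Figure D4:**
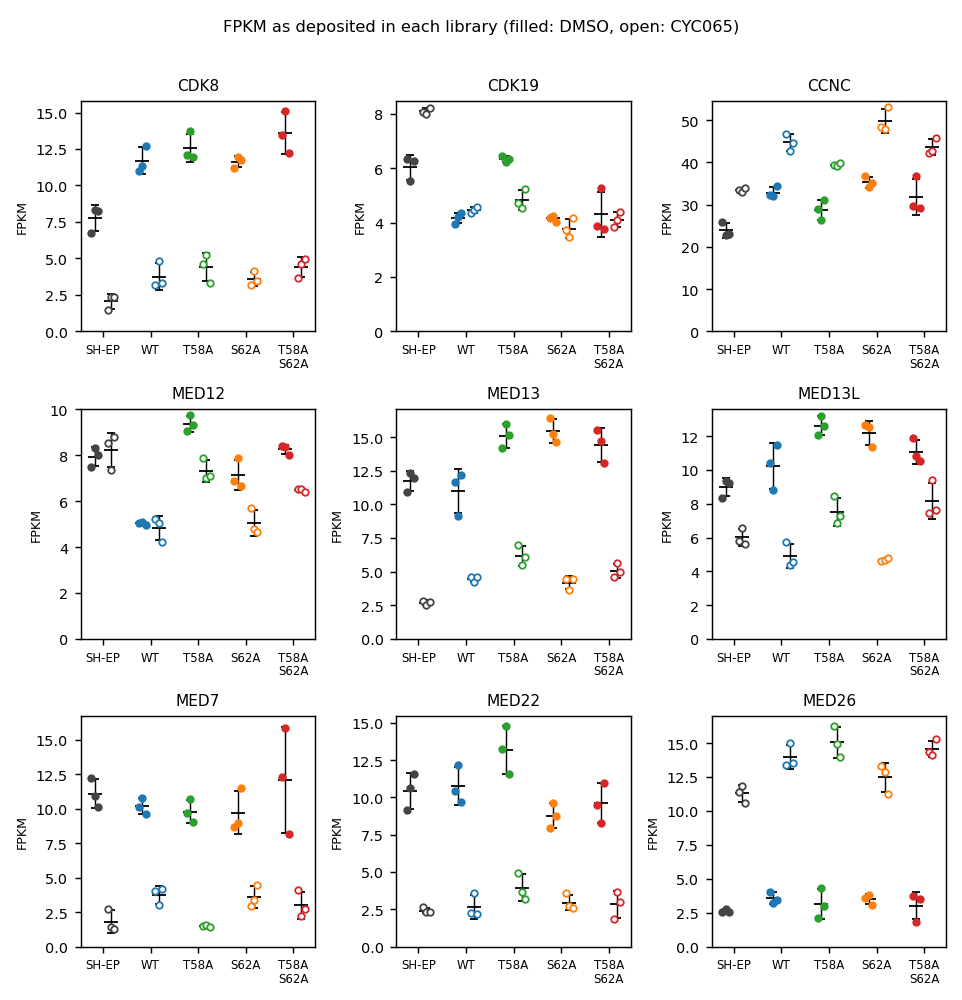
FPKM as deposited (y axis, from 0) in each library of the 5 lines (x axis) for the kinase module genes CDK8, CDK19, CCNC, MED12, MED13, and MED13L, for MED7 and MED22, and for MED26; filled points are DMSO, open points are CYC065, and bars are the mean ± SD of 3 libraries. MED26 with CYC065 stands above every DMSO library, and CDK8, MED7, and MED22 with CYC065 stand below every DMSO library.

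The third comparison sets the CYC065 response of each MYCN line against that of the parental line, as an interaction term. Few subunits passed, and the counts depended on the scaling and on single libraries. In WT, 6 members fell further than in SH-EP (13.6%, against 16.3% of all genes) and 0 less far, where limma at an unadjusted p under 0.05 gave 14 and 1. That WT count became 0 in 8 of the 12 fits that each left out 1 library, and 15 without 1 WT DMSO library. In S62A 1 member fell less far (2.27%, against 3.08% of all genes) and 0 further (against 1.87%, and 7 at an unadjusted p under 0.05). In T58A S62A 1 fell less far (2.27%, against 5.21%) and 0 further (against 0.199%, and 0 also at an unadjusted p under 0.05). In T58A limma called 0 of 44, where 2.28% and 0.311% of all genes were called less and further reduced and an unadjusted p under 0.05 gave 4 and 1. The head subunit MED18 was the 1 member called in the mean of the 4 lines, at 1.00 ± 0.28 (SE) (limma, adjusted p = 0.0331, background 4.17% less and 1.93% further reduced). It was at 27.3, 28.02 and 28.1 in SH-EP, 10.1, 12.1 and 16.3 in WT, 11.04, 17.9 and 18.7 in T58A, 5.76, 7.603 and 9.93 in S62A and 15.9, 21.99 and 22.3 in T58A S62A in DMSO, in spike-in scaled FPKM. With CYC065 it was at 4.45, 5.22 and 5.73 in SH-EP, 2.65, 3.64 and 5.04 in WT, 4.62, 5.91 and 7.69 in T58A, 2.62, 3.45 and 3.68 in S62A and 5.75, 8.05 and 9.79 in T58A S62A. MED18 thus fell to a lower fraction of its control in SH-EP than in the MYCN lines.

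The last comparison sets the mutant MYCN lines against WT in DMSO, on FPKM as deposited. The level of MYCN itself also differed between these lines in DMSO. It was 11.7 to 13.7 FPKM in WT, 7.27 to 9.84 in T58A, 5.08 to 6.59 in S62A, and 9.06 to 15.7 in T58A S62A. The part of the MYCN level in the differences below was not tested. In the mean, the share of members called was near that of all genes in either direction, and after spike-in scaling MED12 alone was called. T58A and T58A S62A had a larger share of members higher than of all genes (18.2% and 20.5%) and a smaller share lower (6.82% and 4.55%). In the mean of the 3 mutants, 5 of 44 members rose (11.4%, against 8.73% of all genes) and 4 fell (9.09%, against 13.1%). By line, T58A had 8 higher and 3 lower (background 10.7% and 13%), S62A 4 and 6 (10.1% and 14%), and T58A S62A 9 and 2 (9.43% and 14.2%). The 3 comparisons share the WT libraries. The 5 that rose in the mean were MED12, MED23, MED13, MED14, and MED1, and MED4, MED6, MED28, and POLR2H fell. All 5 that rose and 3 of those that fell were Mediator genes, which make up 32 of the 44 tested members.

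MED12 rose most. Its WT libraries, at 4.96, 5.03, and 5.10 FPKM, lay below all 9 mutant libraries, at 6.67 to 9.75. The mean log2 change was 0.69 ± 0.072 (SE), or 1.62-fold (limma, adjusted p = 2.69e-07). Against SH-EP, T58A lay above, S62A and T58A S62A overlapped, and WT lay below. MED13 was at 9.13, 11.7, and 12.2 FPKM in WT and 13.1 to 16.4 in the mutants, a mean log2 change of 0.45 ± 0.089 (SE) (limma, adjusted p = 0.000634). MED14, at 12.4 to 14.5 in WT and 16.3 to 21.7 in the mutants, changed by 0.39 ± 0.053 (SE) (limma, adjusted p = 1.07e-05).

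MED23, the tail subunit that receives signals from several activators (chr6:131895106-131949382, minus strand), was at 8.64, 8.65 and 9.62 FPKM in SH-EP, 3.604, 5.73 and 5.97 in WT, 7.099, 7.37 and 7.42 in T58A, 6.22, 6.43 and 7.76 in S62A and 6.44, 7.64 and 7.67 in T58A S62A. 1 WT library, at 3.604, stood apart. The mean log2 change against WT was 0.50 ± 0.11 (SE) (limma, adjusted p = 0.00223), and without that library it was 0.27 (adjusted p = 0.065). MED4, a middle subunit (chr13:48627459-48669267, minus strand), was at 14.8, 15.3 and 15.9 FPKM in SH-EP, 19.8, 21.5 and 23.6 in WT, 14.8, 16.1 and 18.2 in T58A, 19.9, 20.9 and 21.3 in S62A and 13.2, 16.4 and 18.6 in T58A S62A. It was lower in T58A and T58A S62A and overlapped WT in S62A, at a mean of -0.30 ± 0.10 (SE) (limma, adjusted p = 0.0451), which missed the threshold in 9 of 12 fits that left out 1 library.

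On spike-in scaled values only MED12 was past the threshold in the mean of the mutants, at 0.71 (limma, adjusted p = 0.0352, 1 of 44 members, against 0.441% of all genes higher) and 0 were lower (against 0.613%). Across the 44 members, the change against WT went with mRNA length at Pearson r = 0.49, and across 10062 genes at r = 0.27. MED12, MED13, MED14, and MED23 have canonical mRNAs of 6925, 10461, 7996, and 5247 bases in the annotation, and MED4 has 2254. Whether length plays a part in these changes was not tested.

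**Figure D5:**
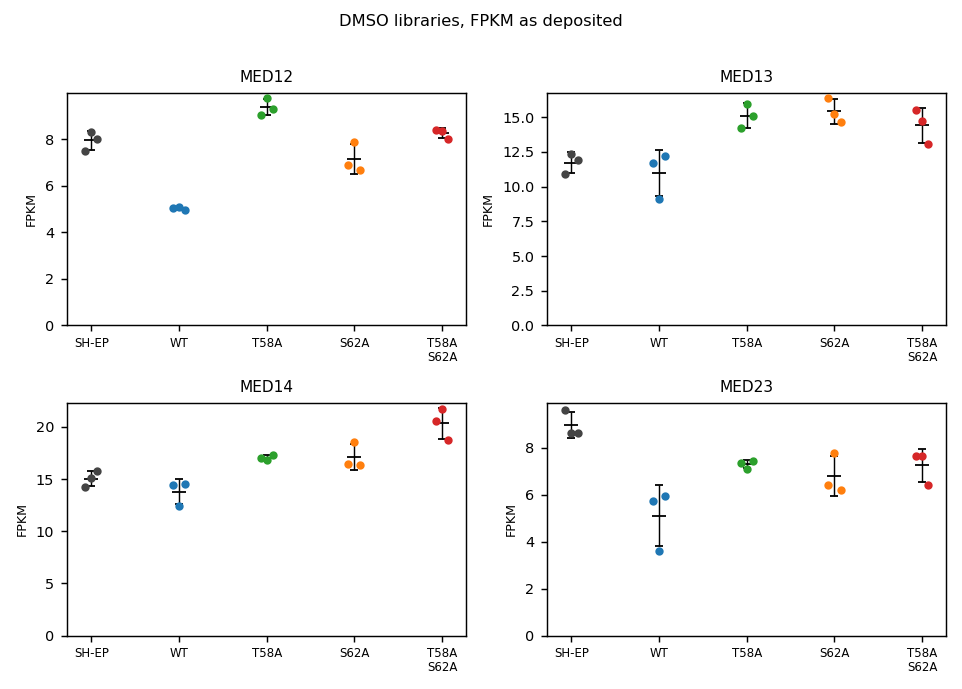
FPKM as deposited (y axis, from 0) in the 15 DMSO libraries by line (x axis) for MED12, MED13, MED14, and MED23; bars are the mean ± SD of 3 libraries. The WT libraries lie below every mutant library in all 4 panels, and 1 WT library lies apart for MED23.

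Other genes of the transcription machinery gave the setting. Of 31 general transcription factor genes, WT had 15 higher and 4 lower against SH-EP in DMSO as deposited, T58A 14 and 4, S62A 12 and 2, and T58A S62A 15 and 3. All counts of this kind stand against 30.9% to 31.6% of all genes higher and 22.6% to 24.1% lower in the 4 lines. TAF4, a TFIID subunit, had the largest mean rise at 0.77, and TAF10 the largest mean fall at -0.56. Of 19 genes specific to RNA polymerases I and III, WT had 14 higher and 1 lower, T58A 13 and 1, S62A 12 and 2, and T58A S62A 13 and 2. The polymerase III subunit genes POLR3G and POLR3GL, which are paralogs, moved apart, with mean log2 changes of 1.61 and -1.01, each past the threshold in 4 of 4 lines. Of 28 tested pausing and elongation factor genes, 15, 10, 15, and 14 rose in the same order of lines and 3, 3, 1, and 3 fell. Of 15 genes for RNAPII assembly factors and phosphatases of its carboxy-terminal domain, 4, 6, 5, and 6 rose and 2, 2, 4, and 4 fell.

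With CYC065, on spike-in scaled values, the counts of these lists stand against 75.7%, 93.7%, 84.2%, 90.2%, and 76.3% of all genes called lower, with SH-EP first and the MYCN lines in the order above. All 19 genes specific to polymerases I and III fell in SH-EP, WT, T58A, and S62A and 18 in T58A S62A, with medians of -1.76 to -2.41. General transcription factor genes fell in 29, 31, 28, 31, and 26 of 31 cases in the 5 lines, with medians of -1.03 to -1.65. GTF2E1, the large TFIIE subunit, fell most, at a mean of -4.66. Assembly and phosphatase genes fell in 15 of 15 cases in every line but T58A S62A, where 12 fell, and the phosphatase gene CTDP1 changed by -3.50. Among elongation factors, 24, 27, 24, 24, and 22 of 28 fell. CDK12, another kinase of the carboxy-terminal domain, changed by -3.20, whereas the P-TEFb cyclin gene CCNT2 and the elongation factor gene ELL had mean changes of -0.09 and -0.05.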

How the data were processed

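RNA-Seq was analysed from 30 libraries, 3 for each of 5 lines in DMSO and CYC065. Per the labels and the study's methods, the authors spiked synthetic RNA in proportion to cell number, made strand-specific libraries from poly(A) RNA, aligned reads to hg19 with HISAT2, and computed FPKM with Cufflinks. The annotation is not given in the sources used here. The deposited FPKM carry no read counts, so the depth is unknown and no counting interval is given. A relative depth from low values was 0.470 to 1 in DMSO and 0.293 to 0.554 with CYC065. Column names gave each library's group but no replicate number matching the labels, and 0 columns were unused.

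The 11575 genes whose mean reached 1 FPKM were log2-transformed after adding 0.1 and fitted over 10 groups with limma 3.58.1 (R 4.3.3, eBayes with trend), with Benjamini-Hochberg adjustment and a threshold of 0.05. The added 0.1 makes changes of low genes look smaller than they are. Lines were compared as deposited, and CYC065 after scaling to the median of 55 of 92 spike-ins. Paralog ratios were permuted exactly in Python 3.11.15, within lines for CYC065 and without regard to line for the comparison with SH-EP. Values by library are given for POLR2A, CDK8, CDK19, CCNC, MED12, MED13, and MED14, and for the 3 members with the largest mean rise or fall among those called in all lines of a comparison (in at least 2 for mutants and response differences). MED26 and MED18 were added after their values were seen. Other genes come from lists written by module or pathway. Members and lists were chosen with earlier results of these data known. The scripts were tested on simulated data. Positions are GRCh37 from the lifted GENCODE annotation.

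The alternatives tried were to add 1 or 0.01 instead, to drop the filter or raise it to 5 FPKM, to swap the scaling, to centre libraries on their medians, to fit only the groups compared, to use only spike-ins averaging 50 FPKM or more, and to leave out each library.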

Additional observations from a re-analysis of the deposited data

Results flagged for a closer look

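Differences between the CYC065 response of a MYCN line and that of SH-EP, tested as an interaction in limma on spike-in scaled values, singled out 8 results. In WT, POLR2E fell by 1.41 on the log2 scale against 0.47 in SH-EP, a difference of -0.94 (adjusted p = 0.0366). The other 5 in WT were the core and shared subunits POLR2I at -0.81 (adjusted p = 0.0452), POLR2J at -0.96 (adjusted p = 0.0475), and POLR2L at -0.93 (adjusted p = 0.0469), and the Mediator genes MED13L at -0.87 (adjusted p = 0.0462) and MED19 at -1.06 (adjusted p = 0.0482). The median difference of all genes in WT was itself -0.52. In WT, 13.6% of members were called further reduced, against 16.3% of all genes. The WT count ranged from 0 to 15 over 12 fits that each left out 1 library. In S62A, MED18 differed by 1.21 (adjusted p = 0.0488), with a change of -1.21 against -2.42 in SH-EP. In T58A S62A, MED6 differed by 0.89 (adjusted p = 0.0258), with -0.95 against -1.84. The share of members called less reduced was 2.27% in each of these 2 lines, against 3.08% of all genes in S62A and 5.21% in T58A S62A. As deposited, all 8 kept their sign, and POLR2I and POLR2J missed the threshold at -0.38 and -0.52 (adjusted p = 0.0639 and 0.0771).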

How the results depend on the processing

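Leaving out 1 library at a time, members called against SH-EP ranged from 20 to 23 in WT, 17 to 20 in S62A, 20 to 23 in T58A, 19 to 23 in T58A S62A, and 21 to 28 in the mean of the 4 lines. With CYC065 they ranged from 35 to 37 in SH-EP, 43 to 43 in WT, 40 to 43 in S62A, 36 to 41 in T58A, 36 to 39 in T58A S62A, 44 to 44 in the mean, and 34 to 37 lower in all 5 lines. Response differences ranged from 0 to 15 in WT, 0 to 1 in S62A, 0 to 0 in T58A, 0 to 3 in T58A S62A, and 0 to 3 in the mean, which fell to 0 without any 1 of the 3 SH-EP DMSO libraries and without 1 SH-EP CYC065 library. Against WT the counts ranged from 8 to 11 in T58A, 5 to 10 in S62A, 6 to 11 in T58A S62A, and 6 to 12 in the mean, and the lowest values came without 1 WT library for S62A and without 1 T58A S62A library for that line. The log2 ratios against SH-EP ranged from 0.92 to 1.17 for CDK8 to CDK19, -0.13 to -0.096 for MED13 to MED13L, and 0.44 to 0.75 for MED12 to MED12L, which passed at 0.69 without 1 WT DMSO library (exact permutation p = 0.044). With CYC065 the ratios ranged from -1.72 to -1.64, -0.79 to -0.75, and -1.20 to -1.04.

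Scaled to the spike-ins, calls against SH-EP became 43 in WT, 44 in S62A, 38 in T58A, and 44 in the mean, and against WT 6 in T58A, 39 in S62A, and 1 in the mean. The direction turned for POLR2F to -0.50, POLR2I to -0.53, CDK8 to -0.57, POLR2A to -1.19, CCNC to -0.82, MED13 to -1.01, and MED14 to -1.08. With CYC065, members lower in all 5 lines became 16 as deposited and 12 with centred libraries, CCNC turned to 0.47 and 0.62, MED14 to 0.38 and 0.53, and CDK19 to 0.17 with centred libraries. MED12 to MED12L turned to -0.055 with a pseudocount of 1.

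Response differences became, as deposited, 12 in WT, 16 in S62A, 8 in T58A, 10 in T58A S62A, and 16 in the mean. With centred libraries they became 10, 15, 7, 10, and 13 in the same order. A pseudocount of 1 gave 1 in WT, 3 in S62A, 2 in T58A S62A, and 4 in the mean. No filter gave 0 in WT and 0 in S62A, and the filter at 5 FPKM 0 in S62A. Spike-ins averaging 50 FPKM or more gave 0 in WT, S62A, T58A S62A, and the mean. Fits of only the groups compared gave 1 in WT and 3 in S62A, and against WT 3 in S62A, 4 in T58A, and 3 in T58A S62A. The cause of these shifts was not tested.

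No paired analysis was possible because the columns carry no replicate numbers that match the labels. MED4 against WT missed the threshold in 9 of 12 fits that left out a library. Without read counts the precision of low genes such as MED12L is unknown, and mRNA levels say nothing of protein. Any separate pool that held the SH-EP libraries cannot be told apart from the parental line.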
